A study of Mus musculus with 9 samples.

Results

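Expression of 10 genes for integrin subunits and other adhesion receptors was followed in activated, CD4-enriched mouse T cells. These cells lacked CD69, had CD69 cross-linked or were left untreated. The genes were Itgae, Itgb7, Itga1, Itga4, Itgal, Itgav, Itgb1, Itgb2, Cd44 and Selplg. They were taken by symbol from the 19938 genes with a probe set of a single gene symbol. Each of the 10 had 1 such probe set, so no choice between probe sets was needed. All samples were CD4-enriched T cells from the spleen of C57BL/6J mice, stimulated for 72 h by anti-CD3/anti-CD28 beads at 10 cells to 1 bead. CD69-/- cells carried a CD69 deletion and received no further antibody. CD69-activated cells were wild type and received anti-CD69 after 24 h and a secondary antibody that cross-links it after 48 h, both diluted 1 in 200. Wild-type cells received the beads alone. Each group had 3 arrays, which the labels call biological replicates. Whether different mice gave them is not stated, and the spread behind the p-values, which is that between these cultures, may be technical. The labels describe no culture with a control antibody, so effects of CD69 ligation and of antibody addition cannot be told apart.

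Integrins are heterodimers of an alpha and a beta subunit that bind matrix proteins or receptors on other cells, and signals from the T cell receptor can switch them to a high-affinity state. Different pairs serve different sites. Alpha-E beta-7 (CD103) binds E-cadherin on epithelium, alpha-4 beta-7 binds MAdCAM-1 on gut vessels, alpha-4 beta-1 (VLA-4) binds VCAM-1 and fibronectin, alpha-1 beta-1 (VLA-1) binds collagen, and alpha-L beta-2 (LFA-1) binds ICAMs. CD44 binds hyaluronan, and PSGL-1, the product of Selplg, carries the glycans that selectins recognise. CD69 and CD103 are the surface proteins commonly used to mark T cells that reside in tissue.

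The values are log2 RMA expression values of single-colour arrays, whose medians over all probe sets lay between 7.40 and 7.56, and the number of arrays limits their precision. Arrays of the same group correlated at 0.996 to 0.998 over probe sets. Cd69 checked the labels: it was at 9.65, 9.49 and 9.63 in CD69-/- cells, at 11.80, 11.84 and 11.74 in CD69-activated cells, and at 12.03, 12.12 and 12.37 in wild type. The CD69-/- arrays had a male pattern (Xist mean 6.01, Eif2s3y mean 9.78) and the other 6 a female one (Xist means of 12.95 in CD69-activated and 12.59 in wild-type cells), so sex and genotype cannot be told apart. The T cell genes Cd4 (means of 12.35, 12.06 and 11.98) and Cd3e (12.88, 12.37 and 12.50 in CD69-/-, CD69-activated and wild-type cells) were bright in every group. So were Cd79b of B cells (13.36, 13.54 and 13.61 in the same order) and Cd8a of CD8 T cells (11.87, 10.73 and 11.26). The samples thus held transcripts of B cells and CD8 T cells, and every value is that of the whole sample.

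Without CD69, most of the integrin and adhesion genes rose modestly and Itga4 fell. Itgae rose 1.45-fold, Itgal 1.25-fold, Itgb2 1.21-fold and Selplg 1.18-fold, while Itga4 was 1.42-fold lower (n = 3 arrays in each group). Limma called 8 of the 10 genes, that is, gave them an adjusted p (Benjamini-Hochberg, all genes tested) below 0.05, against 15.1% of all genes. Of the 8, 7 were higher, against 8.36% of all genes, and 1 was lower, against 6.78%. Over all genes 1667 were called higher and 1351 lower, which became 2462 and 886 after centring on array medians and 2555 and 1071 after centring on medians over the genes tested. The counts of 7 and 1 among the members were the same under both. None of the called members reached 1.5-fold, against 1.15% of all genes. The median log2 fold change of the 10 genes was 0.21, and that of all genes was -0.0091. The groups did not overlap for 9 of the 10, against 33.2% of all genes. The members and the wider lists were chosen with earlier results of these data known. Their shares, here and below, are therefore descriptions and not tests.

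**Figure D1:**
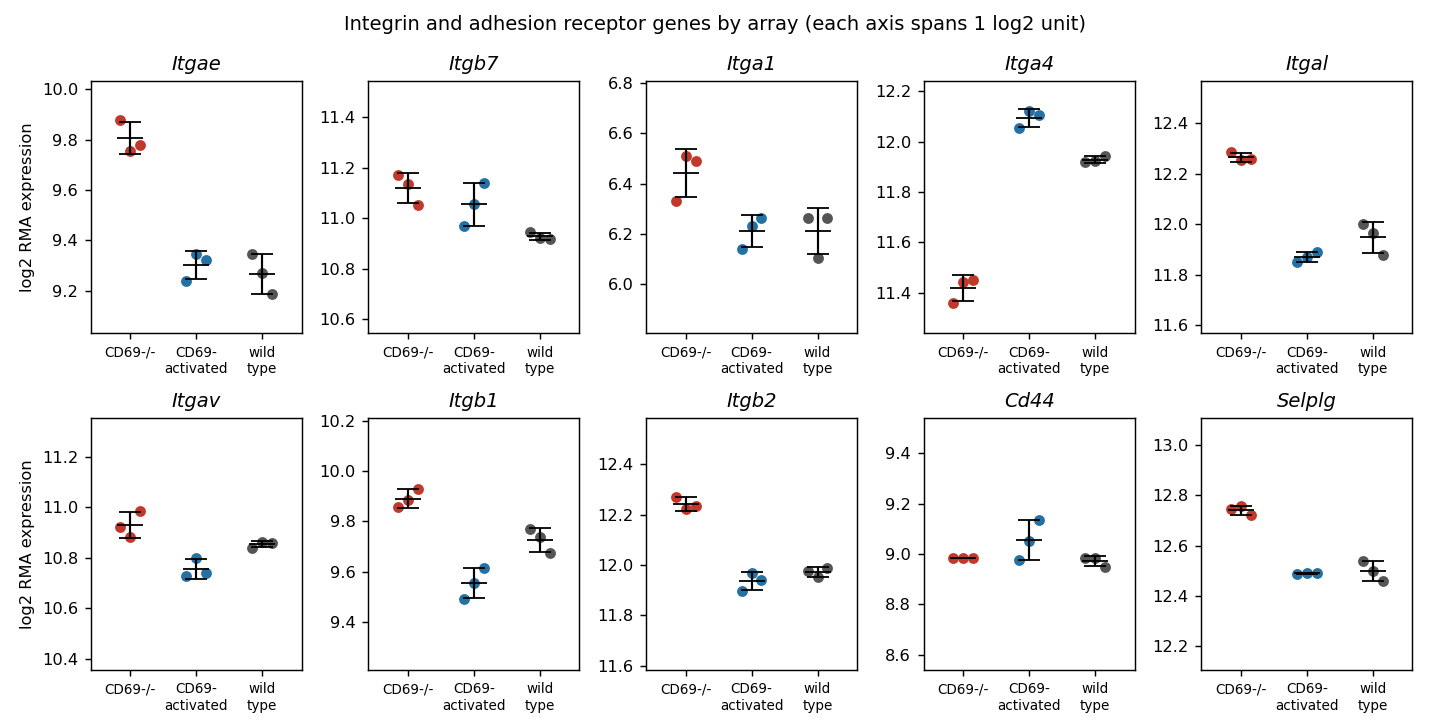
Log2 RMA expression of the 10 genes in each array, with groups on the horizontal axis; points are arrays and bars the mean ± SD (n = 3). The CD69-/- points of Itgae lie between 9.76 and 9.88, above every other array, and those of Itga4 between 11.36 and 11.45, below every other array.

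In CD69-/- cells against wild type, Itgae of the alpha-E beta-7 pair had the largest change of the 10 genes, close to that of Itga4 (-0.51). Its partner Itgb7 had one of the smaller called ones. Itgae, the alpha-E chain, was at 9.88, 9.76 and 9.78 in CD69-/- cells, 9.24, 9.35 and 9.32 in CD69-activated cells and 9.35, 9.27 and 9.19 in wild type. The CD69-/- arrays stood apart, and the other 2 groups overlapped. The log2 fold change of Itgae in CD69-/- cells was 0.54 (SE 0.051, limma adjusted p = 3.39e-05). Itgb7, the beta chain shared by alpha-E and alpha-4, was at 11.17, 11.14 and 11.05 in CD69-/- cells, 10.97, 11.05 and 11.14 in CD69-activated cells and 10.94, 10.92 and 10.92 in wild type. Its CD69-/- rise of 0.19 (SE 0.048, limma adjusted p = 0.0206) was smaller than that of Itgae, and the CD69-/- and CD69-activated arrays overlapped. The Itgb7 call was lost without wild-type replicate 2 (adjusted p = 0.0664) or 3 (0.0697) and without CD69-/- replicate 1 (0.0877) or 2 (0.0698).

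The alpha-4 chain went the other way from its partner beta-7. Itga4 was at 11.36, 11.44 and 11.45 in CD69-/- cells, 12.06, 12.12 and 12.11 in CD69-activated cells and 11.92, 11.92 and 11.94 in wild type. No 2 groups overlapped, and the order of CD69-/- below wild type below CD69-activated held in every array. Its log2 fold change in CD69-/- cells was -0.51 (SE 0.038, limma adjusted p = 6.68e-06). Itgb1, the other beta partner of alpha-4, was at 9.86, 9.89 and 9.93 in CD69-/- cells, 9.49, 9.56 and 9.61 in CD69-activated cells and 9.77, 9.74 and 9.67 in wild type. Here CD69-/- arrays were highest and CD69-activated arrays lowest, again with no overlap. The CD69-/- rise of Itgb1 was 0.16 (SE 0.043, limma adjusted p = 0.0253), and that call was lost without wild-type replicate 2 (adjusted p = 0.0614) or 3 (0.103) and without CD69-/- replicate 2 (0.0653) or 3 (0.0940).

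The 250 bases before the start of the genes of the alpha-4 beta-7 pair are shown because these chains of one receptor changed in opposite directions in CD69-/- cells. They are RefSeq sequences of build GRCm38.p6, 5′ to 3′ on the gene's strand: Itga4 from chr2:79255176-79255425 (plus strand) and Itgb7 from chr15:102231936-102232185 (minus strand). Capitals mark matches on either strand to the KLF motif CACCC and the RUNX motif TGTGGT.
Itga4: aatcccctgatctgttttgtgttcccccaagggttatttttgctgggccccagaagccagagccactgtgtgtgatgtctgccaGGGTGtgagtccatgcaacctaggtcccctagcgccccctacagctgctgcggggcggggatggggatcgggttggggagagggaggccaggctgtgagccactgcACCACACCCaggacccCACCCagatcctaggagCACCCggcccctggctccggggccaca
Itgb7: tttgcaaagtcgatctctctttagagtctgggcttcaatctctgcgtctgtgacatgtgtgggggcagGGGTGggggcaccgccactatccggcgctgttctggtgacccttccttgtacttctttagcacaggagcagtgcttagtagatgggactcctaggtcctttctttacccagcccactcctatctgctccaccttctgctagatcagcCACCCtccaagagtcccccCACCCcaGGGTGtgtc
Both windows held 4 matches to CACCC. At least 1 match was found in 52.0% of 32851 windows of that length before mouse gene starts. How many of these windows held 4 was not counted. Itga4 held 1 match to TGTGGT, which shares bases with a CACCC match, and Itgb7 held 0 (14% of windows have one). For the ETS motif GGAAG, which 64.1% of windows hold, Itga4 had 0 matches and Itgb7 had 1. For the SMAD motif CAGAC, which 42.2% hold, Itga4 had 1 and Itgb7 had 2. A window was found for 6 of the 10 genes. Itgae, Itgal, Itgb2 and Selplg had no entry.

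Both chains of LFA-1 rose in CD69-/- cells. Itgal, the alpha-L chain, was at 12.29, 12.25 and 12.26 in CD69-/- cells, 11.85, 11.87 and 11.89 in CD69-activated cells and 12.00, 11.97 and 11.88 in wild type. Itgb2, the beta-2 chain of leukocyte integrins, was at 12.27, 12.22 and 12.23 in CD69-/- cells, 11.90, 11.97 and 11.94 in CD69-activated cells and 11.98, 11.95 and 11.99 in wild type. For both genes every CD69-/- array lay above the other 6, which overlapped between groups. The log2 fold changes were 0.32 for Itgal (SE 0.039, limma adjusted p = 0.000202) and 0.27 for Itgb2 (SE 0.035, adjusted p = 0.000315).

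Of the 2 remaining alpha chains, Itga1 rose in CD69-/- cells and Itgav did not pass. Itga1 was at 6.33, 6.51 and 6.49 in CD69-/- cells, 6.14, 6.23 and 6.26 in CD69-activated cells and 6.26, 6.11 and 6.26 in wild type. These levels lie below the array medians, and the values carry no detection call. The Itga1 rise of 0.23 (SE 0.060, limma adjusted p = 0.0237) was lost without wild-type replicate 2 (adjusted p = 0.0957) and without CD69-/- replicate 2 (0.0942) or 3 (0.0895). Itgav, which encodes the alpha-v chain of vitronectin receptors and of integrins that release active TGF-beta, was at 10.92, 10.88 and 10.99 in CD69-/- cells, 10.73, 10.80 and 10.74 in CD69-activated cells and 10.84, 10.86 and 10.86 in wild type. Its CD69-/- difference of 0.076 had a 95% interval of -0.0093 to 0.16 (limma adjusted p = 0.241), although the groups did not overlap.

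Of the receptors that are no integrins, Selplg rose in CD69-/- cells and Cd44 did not pass. Selplg was at 12.74, 12.76 and 12.72 in CD69-/- cells, 12.49, 12.49 and 12.49 in CD69-activated cells and 12.54, 12.50 and 12.46 in wild type. Every CD69-/- array was above the rest, with a log2 fold change of 0.24 (SE 0.034, limma adjusted p = 0.000589). Cd44 was at 8.98 in all 3 CD69-/- arrays, at 8.98, 9.05 and 9.13 in CD69-activated cells and at 8.98, 8.98 and 8.95 in wild type. In 5 of the 9 arrays its value was exactly the same, which was so in at least 5 arrays for 5.56% of all genes, so the SD of 0 in CD69-/- cells does not measure the spread between cultures. The CD69-/- difference of Cd44 was 0.011, with a 95% interval of -0.081 to 0.10 (limma adjusted p = 0.899).

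Markers of cell types moved with the rises in CD69-/- cells. All 11 CD4 T cell markers measured were higher (median 0.52, range 0.32 to 0.62), and their mean level was 11.89 to 11.91 in CD69-/- arrays and 11.38 to 11.45 in wild-type arrays. All 11 B cell markers were lower (median -0.47, range -0.97 to -0.26), with mean levels of 11.52 to 11.60 in CD69-/- arrays and 12.05 to 12.10 in wild-type arrays. Of 13 monocyte, macrophage and dendritic cell markers 11 were lower and 1 was higher (median -0.39), with mean levels of 7.99 to 8.07 in CD69-/- arrays and 8.52 to 8.56 in wild-type arrays. Both CD8 T cell markers were higher (median 0.52), and of 7 NK cell markers 2 were higher and 3 lower. Of 4 platelet markers 2 were lower (lowest -0.81), as were 2 of 3 erythroid (lowest -2.35) and 1 of 10 neutrophil markers (-1.23). In these 3 sets 0 were higher. Of the 7 members that rose, Itgae lay within the range of the CD4 T cell markers, and 6 rose by less than the least of these markers. Itgae also lay within the range of the CD8 T cell markers (0.43 to 0.61). The fall of Itga4 lay within the range of the B cell markers. The range of the monocyte, macrophage and dendritic cell markers (-1.86 to 0.51) spanned 0. It held Itga4 but also members that rose, such as Itgal (0.32), so it does not single out Itga4. In such bulk samples, fewer cells of a type and less RNA per cell cannot be told apart, and the part of cell composition in these changes was not tested.

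**Figure D2:**
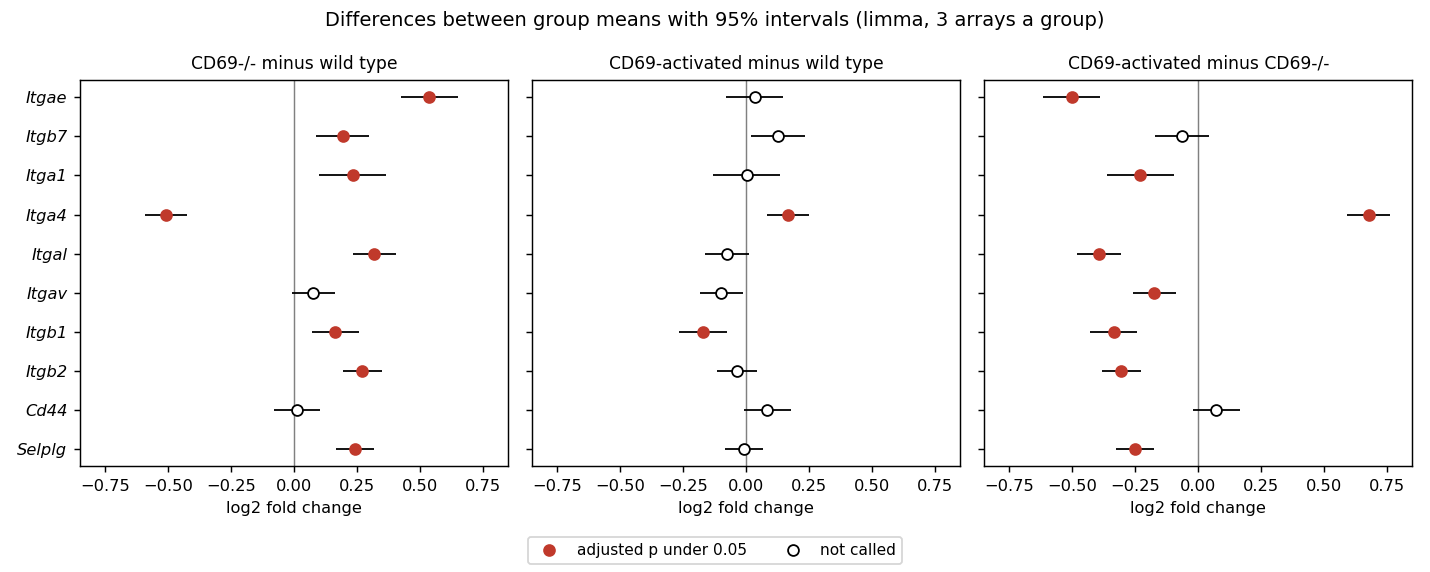
Differences between group means of the 10 genes on the log2 scale (horizontal axis) in the 3 comparisons, with 95% intervals from limma (n = 3 arrays a group); filled points have an adjusted p under 0.05. Itgae (0.54) and Itga4 (-0.51) lie farthest from 0 against wild type without CD69, and after CD69 activation every difference from wild type lies between -0.17 and 0.17.

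CD69 cross-linking moved these genes little. Against wild type, Itga4 was 1.12-fold higher and Itgb1 1.13-fold lower in CD69-activated cells, and the other 8 genes did not pass. These 2 calls among 10 genes compare with 23.8% of all genes called in this comparison, 10.1% higher and 13.7% lower. The median log2 fold change of the 10 genes was -0.0036, and that of all genes was 0.017. With median-centred arrays the calls over all genes were 764 higher and 4741 lower, in place of 2015 higher and 2727 lower. Under that centring 0 members were called higher and 3 lower. None of the called members reached 1.5-fold, against 1.58% of all genes. The groups did not overlap for 4 of the 10 genes, against 36% of all genes.

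The alpha-4 and beta-1 chains of VLA-4 again differed in direction after CD69 activation. The log2 fold change of Itga4 was 0.17 (SE 0.038, limma adjusted p = 0.00876), and all 3 CD69-activated arrays lay above all 3 of wild type. That call was lost when arrays were centred on the median of all their probe sets (log2 fold change 0.084, adjusted p = 0.157). Itgb1 fell by 0.17 (SE 0.043, limma adjusted p = 0.0136), a call lost without wild-type replicate 1 (adjusted p = 0.0568). Itgb7 had a log2 fold change of 0.13 (adjusted p = 0.0826), which passed after cyclic loess (0.17, adjusted p = 0.0170), with an intensity trend and robust prior (0.0461) and without CD69-activated replicate 1 (0.0269). The Cd44 difference of 0.083 (adjusted p = 0.186) passed after cyclic loess (0.11, adjusted p = 0.0410) and without CD69-activated replicate 1 (0.0459). Without that array 4 of the 10 genes were called, and without wild-type replicate 1 only Itga4 was.

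The remaining genes stayed within small intervals of wild type after CD69 activation. The 95% interval of the log2 difference was -0.079 to 0.15 for Itgae, -0.13 to 0.13 for Itga1, -0.16 to 0.0093 for Itgal, -0.11 to 0.041 for Itgb2 and -0.085 to 0.067 for Selplg. That of Itgav was -0.18 to -0.014 (adjusted p = 0.0906). With median-centred arrays Itgav (-0.18, adjusted p = 0.00495) and Itgal (-0.16, adjusted p = 0.0290) passed as lower. The median of the CD4 T cell markers was 0.0031 in this comparison, with 1 of 11 higher and 2 lower, and B cell markers a median of -0.039, with 1 of 11 higher and 2 lower. Other marker sets moved: both CD8 T cell markers were lower (median -0.39), as were 5 of 7 NK cell markers (median -0.35, lowest -1.63). Of 13 monocyte, macrophage and dendritic cell markers 4 were higher and 4 lower, over a range of -0.78 to 0.85. Of 4 platelet markers 1 was higher and 2 were lower, and of 3 erythroid markers 1 was higher and 1 lower (-1.88). Of 10 neutrophil markers 1 was higher (1.35) and 0 were lower. The part of these cells in the members' differences was not tested.

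Setting CD69-activated against CD69-/- cells compares their 2 differences from wild type, since the wild-type arrays cancel. It also sets arrays of a female pattern against arrays of a male one (Xist means of 12.95 and 6.01). Only the CD69-activated cells received added antibodies. Sex, antibody addition and CD69 cannot be told apart here. Itga4 was 1.60-fold higher in CD69-activated cells (log2 fold change 0.68, SE 0.038, limma adjusted p = 2.38e-07), and 7 genes were lower, among them Itgae by 0.50 (SE 0.051, adjusted p = 1.81e-05), Itgal by 0.39 (SE 0.039, adjusted p = 1.44e-05) and Itgb1 by 0.34 (SE 0.043, adjusted p = 9.83e-05). The others were Itgb2 (-0.31), Selplg (-0.25), Itga1 (-0.23) and Itgav (-0.17). These 8 calls of 10 compare with 42.6% of all genes called, 21.6% higher and 21% lower. Itga4 alone was called with a change of at least 1.5-fold, against 4.02% of all genes. The groups did not overlap for 8 of 10 genes, against 51.5% of all genes. With median-centred arrays the calls over all genes were 1354 higher and 7990 lower, in place of 4314 higher and 4187 lower. Itgb7 (-0.065, 95% interval -0.17 to 0.042) and Cd44 (0.072, 95% interval -0.021 to 0.16) did not pass. Itgb7 passed with median centring (-0.19, adjusted p = 0.0138), Cd44 after cyclic loess (0.13, adjusted p = 0.0119) and without CD69-activated replicate 1 (0.11, adjusted p = 0.0436), and Itgav was lost after cyclic loess (-0.099, adjusted p = 0.0507). CD4 T cell markers were lower in 11 of 11 cases (median -0.50) and B cell markers higher in 11 of 11 (median 0.42) here. Both CD8 T cell markers were lower (median -0.92), and of the monocyte, macrophage and dendritic cell markers 10 of 13 were higher and 2 lower (median 0.31, highest 2.71). Of 7 NK cell markers 1 was higher and 4 were lower (median -0.28). Of 4 platelet markers 3 were higher and 1 lower, and of 10 neutrophil markers 3 were higher (highest 2.58) and 1 lower. Of 3 erythroid markers 2 were higher and 0 lower. Their part in the members' differences was not tested.

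Of the 18 other integrin subunits measured, 3 were higher and 2 lower in CD69-/- cells (median -0.0053), a share of 27.8% against 15.1% of all genes. Itgam, the alpha-M chain of myeloid cells, was at 7.47, 7.57 and 7.82 in CD69-/- cells, 8.41, 8.34 and 8.54 in CD69-activated cells and 8.58, 8.59 and 8.32 in wild type, and fell by 0.88 (SE 0.096, limma adjusted p = 9.07e-05). Only the CD69-/- arrays of Itgam stood apart. Itgb8, which pairs with alpha-v to activate latent TGF-beta, was at 7.74, 7.67 and 7.59 in CD69-/- cells, 7.16, 7.06 and 7.27 in CD69-activated cells and 7.29, 6.99 and 7.14 in wild type, and rose by 0.53 (SE 0.077, adjusted p = 0.000726). Itga2b, the platelet alpha-IIb chain, fell by 0.33 and Itga2, a collagen-binding chain, rose by 0.24. After CD69 activation 1 was higher and 3 were lower, and this share of 22.2% was near the 23.8% of all genes. Itgax, the alpha-X chain of dendritic cells, fell by 0.35 (SE 0.050, adjusted p = 0.000497), while Itga10 (0.18), Itga5 (-0.16) and Itga2b (-0.15) moved by less. The Itga5 call was lost under 10 of 19 alternatives, 6 of them leaving out 1 array. That of Itga10 was lost under 3 and that of Itga2b under 1. Cell type markers moved in both comparisons, as given above. The part of cell composition in the changes of this list and of the wider lists below was not tested.

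**Figure D3:**
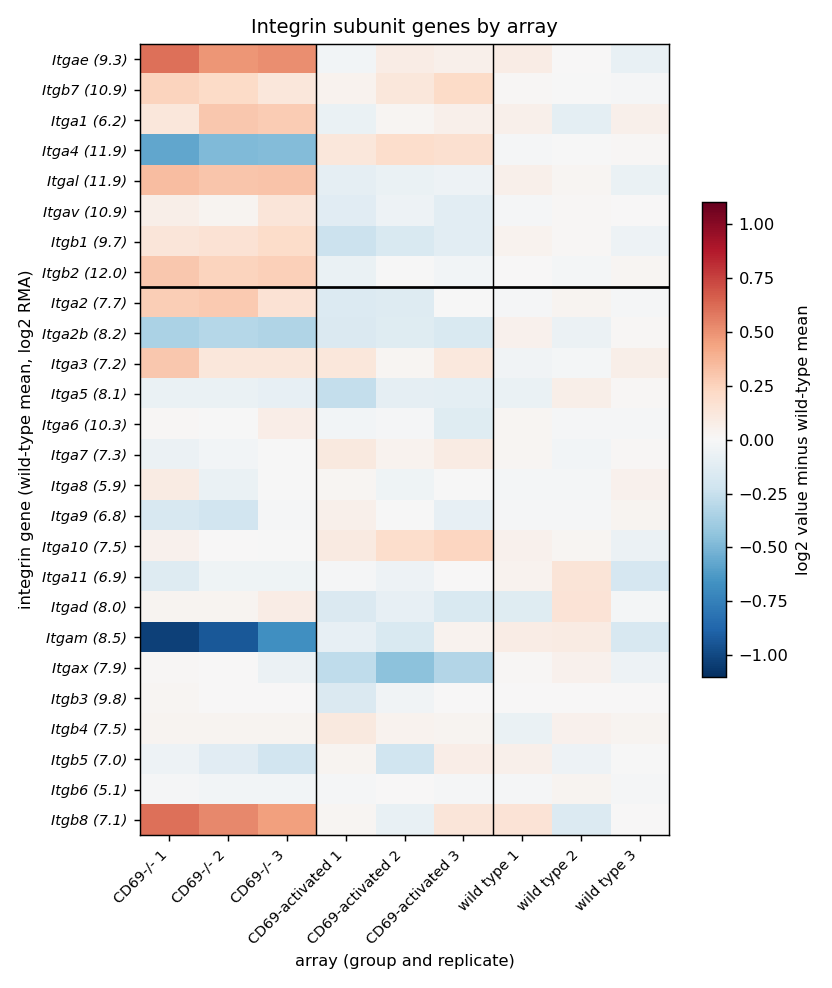
Log2 value of each integrin subunit gene in each array (columns, by group and replicate) minus its wild-type mean, which stands in brackets beside the name; the 8 integrin members are above the line and the 18 others below it. Itgae and Itgb8 are red and Itga4 and Itgam blue in all 3 CD69-/- arrays.

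Of 29 genes that link integrins to the cytoskeleton or switch them on, 9 were higher and 4 lower in CD69-/- cells (median 0.0022), a share of 44.8% against 15.1% of all genes. Rasgrp2 encodes CalDAG-GEFI, an activator of the integrin-activating GTPase RAP1. It was at 9.98, 10.04 and 10.06 in CD69-/- cells, 10.83, 10.92 and 10.90 in CD69-activated cells and 10.76, 10.69 and 10.70 in wild type. It fell by 0.69 (SE 0.041, limma adjusted p = 1.64e-06) in CD69-/- cells. Skap1 encodes an adaptor that couples the T cell receptor to LFA-1 adhesion. It was at 10.71, 10.71 and 10.72 in CD69-/- cells, 10.39, 10.56 and 10.46 in CD69-activated cells and 10.12, 10.17 and 10.11 in wild type. It rose in CD69-/- cells (0.58, SE 0.045, adjusted p = 8.07e-06) and in CD69-activated cells (0.34, SE 0.045, adjusted p = 0.000307), which share the wild-type arrays. Its partner Fyb was also higher in both (0.32 and 0.20), the second call being lost with median centring, and Vcl, encoding vinculin, fell by 0.38 in CD69-/- cells. After CD69 activation 17.2% were called, below the 23.8% of all genes, with 4 of 29 higher and 1 lower, namely Fermt3, encoding the leukocyte kindlin (-0.19). Rasgrp2 was at 0.17, a call lost with median centring and without wild-type replicate 2.

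Of 17 ligands of these integrins, 1 was higher and 5 were lower in CD69-/- cells (median -0.054), so that 35.3% were called against 15.1% of all genes. Thbs1, the matrix protein thrombospondin-1, was at 10.02, 9.92 and 10.07 in CD69-/- cells, 11.13, 11.16 and 11.17 in CD69-activated cells and 10.72, 10.68 and 10.78 in wild type. It fell by 0.72 without CD69 (SE 0.045, limma adjusted p = 2.16e-06) and rose by 0.42 after CD69 activation (SE 0.045, adjusted p = 6.61e-05). Icam2, a ligand of LFA-1, fell by 0.31 and Vcam1, the ligand of VLA-4, by 0.30 in CD69-/- cells, and Fn1, encoding fibronectin, by 0.21, a call lost under 4 of 18 alternatives, 3 of them leaving out 1 array. After CD69 activation 3 of 17 fell and 1 rose, a share of 23.5% beside 23.8% of all genes, with Icam1, another ligand of LFA-1, at -0.27 and Vcam1 at -0.21. Cdh1, encoding the ligand of alpha-E beta-7, was at -0.12, a call lost under 10 of 19 alternatives, 6 of them leaving out 1 array.

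The list of selectins, enzymes that build their ligands and proteins that carry them had 4 of 18 genes higher and 4 lower in CD69-/- cells (median -0.017), a share of 44.4% against 15.1% of all genes. The sulfotransferase gene Chst2 rose by 0.77 (SE 0.059, limma adjusted p = 7.88e-06) and the sialyltransferase gene St3gal4 by 0.46. The core-2 branching enzyme gene Gcnt1 fell by 0.40, and Cd24a, a glycan-bearing surface protein of B cells and other cells, by 0.54. After CD69 activation 2 rose and 4 fell, 33.3% of the list against 23.8% of all genes. The tyrosine sulfotransferase gene Tpst1 was at -0.29 and Chst2 at -0.26. Spn, the CD43 gene, was at -0.20, a call lost without wild-type replicate 1, and B4galt1 was at 0.16, a call lost under 4 of 19 alternatives, 3 of them leaving out 1 array.

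**Figure D4:**
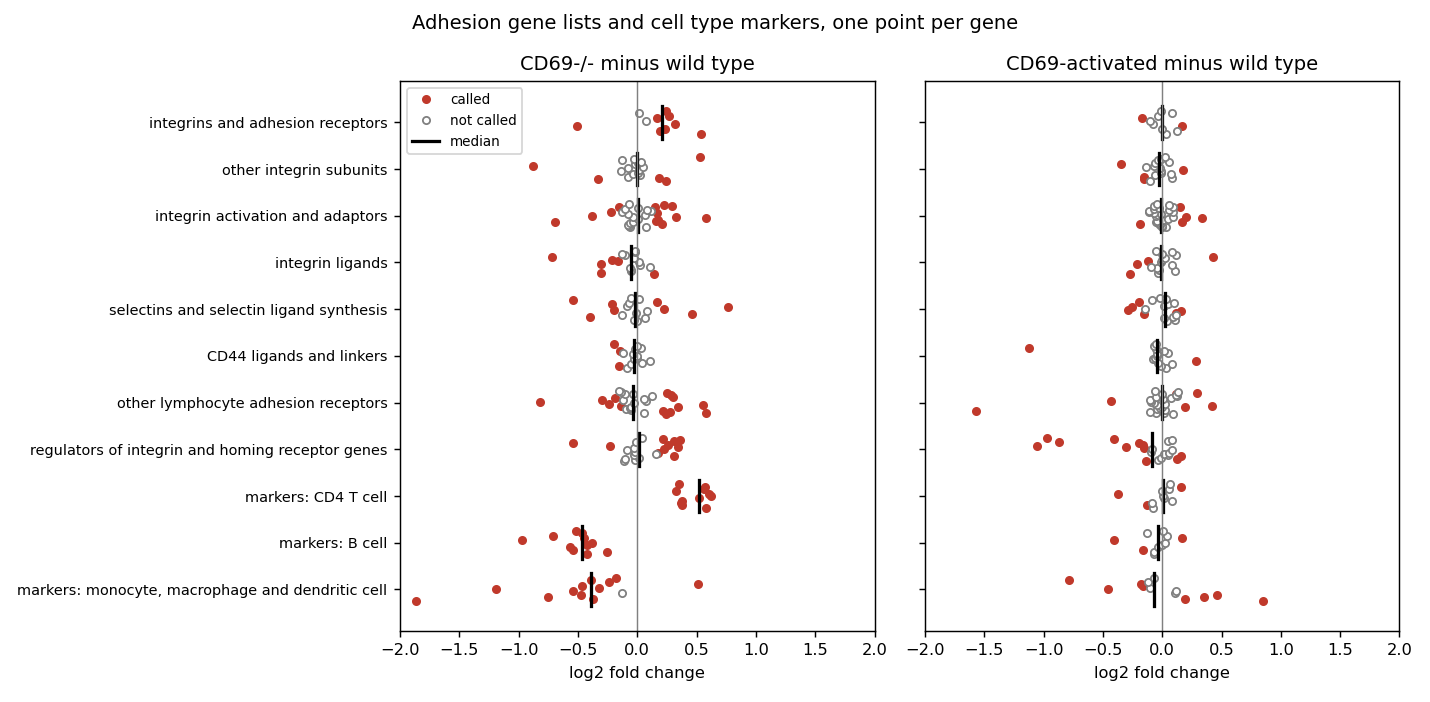
Log2 fold change (horizontal axis) of each gene of the adhesion lists and of 3 marker sets in CD69-/- (left) and CD69-activated cells (right) against wild type; red points were called and bars are medians. The 10 integrin and adhesion receptors have a median of 0.21 on the left and -0.0036 on the right, and the CD4 T cell and B cell markers have medians of 0.52 and -0.47 on the left.

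Of 15 ligands and linkers of CD44, 3 were lower and 0 higher without CD69 (20% called against 15.1% of all genes, median -0.025), led by Cd74, the MHC class II invariant chain (-0.20), while the call of Has2 (-0.16) was lost under 13 of 18 alternatives, 6 of them leaving out 1 array, and that of Stab1 (-0.14) under 7 of 19, 4 of them leaving out 1 array. After CD69 activation 13.3% were called, against 23.8% of all genes. Hmmr, a hyaluronan-binding protein of the mitotic spindle, fell by 1.12 (SE 0.076, limma adjusted p = 2.96e-06), and Vcan, encoding versican, rose by 0.28. Other lymphocyte adhesion receptors were higher in 9 and lower in 5 of 28 cases in CD69-/- cells (median -0.034), 50% being called against 15.1% of all genes. Cd226, an activating receptor (0.58), its ligand gene Pvr (0.34) and Cd6, a receptor of the scavenger family (0.55), rose, and Ceacam1 fell by 0.82 (SE 0.066, adjusted p = 9.90e-06). After CD69 activation 4 rose and 2 fell, 21.4% against 23.8% of all genes, with Crtam, a T cell receptor for nectin-like proteins, at -1.57 (SE 0.044, adjusted p = 8.01e-09), Epcam at -0.43, Alcam, a ligand of CD6, at 0.42 and L1cam at 0.29.

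Regulators known to act on integrin and homing receptor genes were called in 10 of 21 cases in CD69-/- cells, 8 higher and 2 lower (median 0.014), a share of 47.6% against 15.1% of all genes. Klf2, which maintains genes of lymphocyte circulation, fell by 0.54 (SE 0.043, limma adjusted p = 9.66e-06), beside rises of the retinoic acid receptor gene Rara (0.36), of Tbx21, encoding T-bet (0.35), and of Smad3, a transducer of TGF-beta signals (0.31). After CD69 activation 2 of 21 rose and 9 fell (median -0.089), a share of 52.4% against 23.8% of all genes. Eomes, a T-box factor, fell by 1.06 (SE 0.038, adjusted p = 3.63e-08), Nr4a1, an immediate early gene of T cell receptor signalling, by 0.97, the repressor gene Hic1 by 0.87 and Bhlhe40 by 0.41.

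The genes whose pattern over the 9 arrays was nearest to that of Itgae were Cd5, Cxcr6 and Icos. Likeness was the root mean square distance between log2 values centred on each gene's own mean, which was 0.028 for the Cd5 gene, whose product dampens T cell receptor signals, 0.035 for the chemokine receptor gene Cxcr6 and 0.037 for the costimulatory receptor gene Icos. Their log2 fold changes in CD69-/- cells were 0.52, 0.59 and 0.56, and Cd5 and Icos belong to the CD4 T cell markers above. Nearest to Itga4, which had the widest range of group means among the other members (0.68), were Pgap1 (0.030), Txndc16 (0.039) and Hvcn1 (0.040), the last a voltage-gated proton channel gene. In CD69-/- cells these 3 had log2 fold changes of -0.48, -0.42 and -0.45. These distances describe the 9 arrays and were not tested.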

How the data were processed

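The deposited table holds log2 expression values of 35556 probe sets on 9 arrays, deposited by the authors; per the submitters' processing notes, RMA, oligo and R 2.12.1 were used. The RMA settings are not given in the sources used, and RMA compresses large fold changes. The platform annotation names 1 gene for 21789 probe sets, several for 1621 and none for 12146. Symbols were updated by gene ID (21698 matched RefSeq), and each of 19938 genes took its probe set of highest mean.

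Limma 3.58.1 (R 4.3.3) was fitted to these values without further normalization (3 group means, 9 arrays, eBayes, 6 residual and 4.78 prior degrees of freedom, two-sided), with Benjamini-Hochberg adjustment over all genes and calls at 0.05. The fit was tested on simulated data. The 95% intervals are for single genes and unadjusted. Differences are in the order named, so positive means higher in the group named first.

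The members and gene lists were chosen with earlier results of these data known. Text names the members, Cd69, Xist and Y-linked genes, the 3 nearest patterns, and from each wider list up to 4 called genes with the largest change per comparison with wild type; markers of cell types are named as checks. The labels state no pairing of arrays by replicate number, and none was used in the main fit. Correlations of deviations ranged from -0.24 to 0.14 for same numbers and from -0.14 to 0.20 for different ones. This does not settle whether arrays were paired. Some genes of the wider lists were not analysed here. Figures were drawn with matplotlib 3.10.9.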

Additional observations from a re-analysis of the deposited data

How the results depend on the processing

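Alternatives were 2 centrings on medians (of all probe sets, and of the genes tested, chosen after seeing the data), cyclic loess, leaving out the dimmest 30% of genes (which drops Itga1), all probe sets, averaged probe sets, only the arrays compared, array weights, an intensity trend and robust prior, the replicate number as a block, and leaving out each array. No call of a member, of Cd69 or of a gene named from the wider lists changed sign. Cell type markers, sex-linked genes and the genes of nearest pattern were not followed gene by gene under the alternatives. Itgae, Itga4, Itgal, Itgb2 and Selplg kept their CD69-/- calls under 19 of 19 alternatives. Members called in CD69-/- cells numbered 8, and 5 to 8 without 1 array (5 without wild-type replicate 2 or CD69-/- replicate 2). Calls over all genes there numbered 3018, and 2212 to 3277 without 1 array. In CD69-activated cells 2 members were called, with 4 after cyclic loess and 1 to 4 without 1 array. Calls over all genes were 4742, with 4853 after cyclic loess and 3488 to 4551 without 1 array. In CD69-activated against CD69-/- cells 8 members were called, with 8 to 9 without 1 array and 7 without the dimmest genes. Calls over all genes were 8501, with 7119 to 8193 without 1 array and 7648 without the dimmest genes. The causes were not tested.

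With the replicate block 2609 genes were called in CD69-/- cells, 4345 after CD69 activation and 8055 between them, and the member counts were 7, 2 and 8, Itgb1 in CD69-/- cells being lost (adjusted p = 0.0529). The labels do not state that equal numbers pair the arrays. Of 27 named calls of the wider lists in CD69-/- cells 24 held under every alternative, and of 26 after CD69 activation 18 did.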

Other observations

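Between CD69-activated and CD69-/- cells, the wider adhesion lists held several genes of large difference, chosen here after their values were seen. Thbs1 was higher in CD69-activated cells by 1.15 (SE 0.045, limma adjusted p = 1.74e-08), Rasgrp2 by 0.86 (SE 0.041, adjusted p = 7.39e-08), Itgam by 0.81 (SE 0.096, adjusted p = 5.95e-05) and Ceacam1 by 0.72 (SE 0.066, adjusted p = 7.81e-06). Crtam was at -1.79 (SE 0.044, adjusted p = 5.71e-10), Chst2 at -1.03 (SE 0.059, adjusted p = 2.79e-07), Cd226 at -0.56 (SE 0.078, adjusted p = 0.000177) and Itgb8 at -0.50 (SE 0.077, adjusted p = 0.000381). The CD69-activated and CD69-/- arrays did not overlap for any of these genes, nor for 51.5% of all genes. As these genes were chosen for large differences, the lack of overlap adds no evidence.

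By list, 5 of 29 integrin activators and adaptors were higher in CD69-activated than in CD69-/- cells and 10 lower, 6 of 17 integrin ligands were higher and 2 lower, and 3 of 21 regulators were higher and 13 lower, beside 42.6% of all genes called. The shares called were 51.7% for activators and adaptors, 47.1% for ligands and 76.2% for regulators. Markers of CD4 T cells (11 of 11 lower), CD8 T cells (2 of 2 lower, Cd8a at -1.15), B cells (11 of 11 higher) and monocytes, macrophages and dendritic cells (10 of 13 higher, Adgre1 at 2.71) moved in the same comparison, and their part in these counts was not tested.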
